A study of Mus musculus with 2 samples.

Results

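High-Meg3 neuroblasts are the cells of a mouse brain sort that carry RNA of the immature-neuron genes Dcx and Sox11 and devote at least 0.2% of their RNA molecules to the long noncoding RNA Meg3. They numbered 598 of the 4151 brain cells that passed the quality filter (14.4%, exact 95% interval 13.4 to 15.5%). The members were chosen by a gate on counts of unique molecular identifiers (UMIs), each of which stands for 1 captured RNA molecule. A cell had to hold at least 1 Dcx UMI and at least 4 UMIs of Dcx and Sox11 together. It could hold at most 1 UMI of the dividing-cell genes Mki67 and Top2a, fewer than 10 UMIs of the astroglial genes Slc1a2, Slc1a3 and Aldoc, and at most 1 UMI of the oligodendrocyte progenitor genes Pdgfra and Cspg4. Of the 1239 cells that passed, the 598 with Meg3 at 0.2% of their UMIs or more (48.3%, 45.4 to 51.1%) are called high-Meg3 neuroblasts, and the other 641 are called low-Meg3 neuroblasts.

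The cells came from a study that sorted cells carrying a Nestin-GFP reporter, in which green fluorescent protein is driven by regulatory sequence of the Nestin gene, from brain and lung of transgenic mice aged about 6 weeks. On strain the sources differ, with C57BL/6 in the labels and CD1 or mixed CD1 and C3H stock in the methods. Each tissue was minced, digested and sorted by flow cytometry, and gave 1 droplet-based 3′ single-cell RNA library. The number of animals behind a library was not given in the sources used here, and the labels name no treatment. With 1 library there is no replicate, so every difference below is between cells of that library, has no test, and carries an interval that covers counting error only.

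Neuroblasts are migrating, immature neurons. In the adult rodent forebrain they arise from neural stem cells beside the lateral ventricle, travel along the rostral migratory stream, and mostly become inhibitory granule and periglomerular interneurons of the olfactory bulb, while another set arises in the dentate gyrus and becomes excitatory. Doublecortin, the product of Dcx, is a microtubule-binding protein of migrating neurons, and Sox11 is a transcription factor of newly formed neurons. Meg3 is transcribed from the maternal copy of the imprinted Dlk1-Dio3 domain, in the same direction as the noncoding RNAs Rian and Mirg, and is abundant in neurons.

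Because Dcx, Sox11, Meg3 and the excluded genes set the gate, their values describe the members and are no finding. The median member held 5 Dcx UMIs, 1 Sox11 UMI and 16.5 Meg3 UMIs. Meg3 took a median of 0.413% of a member's UMIs, reaching up to 1.79%, and a median of 0 in low-Meg3 neuroblasts. The median low-Meg3 neuroblast held 5 Dcx and 2 Sox11 UMIs. The distribution had no gap at the threshold. Just outside it, 71 cells lay between 0.15 and 0.2%, and just inside it, 80 cells lay between 0.2 and 0.25%.

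The name neuroblast was checked on genes the gate did not read, and these were present. The homeobox genes Dlx1 and Dlx2, which specify forebrain inhibitory neurons, stood at 1020 and 503 CPM (UMIs of the gene per 1000000 UMIs of the group) in the members. The interneuron transcription factor Sp8 stood at 1211 CPM, against 2.5 CPM in 317 endothelial cells of the same library. The gate for the latter was at least 4 UMIs of Cldn5, Flt1 and Pecam1, at most 1 of Dcx and Sox11, and fewer than 10 of the astroglial genes. The proposed name also includes the word late. No file orders the cells in time, so the cells are named here by their Meg3 level alone.

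Depth and RNA composition differed between the groups. The median member had 3967.5 UMIs and 1981 genes, against 5075 UMIs and 2331 genes in low-Meg3 neuroblasts. The nuclear RNA Malat1 took a median of 5.83% of UMIs in members and 3.73% in low-Meg3 neuroblasts. Mitochondrial transcripts took 3.57 and 3.52%, and ribosomal protein transcripts 10.1 and 11.1%. Malat1 and depth both moved with Meg3, so the comparisons were repeated in cells with Malat1 between 4 and 6% (240 members and 191 low-Meg3 neuroblasts) and after each cell was thinned to 2000 UMIs. Where either ended a 2-fold call of a gene given with its ratio, its value stands beside that ratio, together with the larger of the other moves. The part of Malat1 and depth in the other results was not tested.

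**Figure D1:**
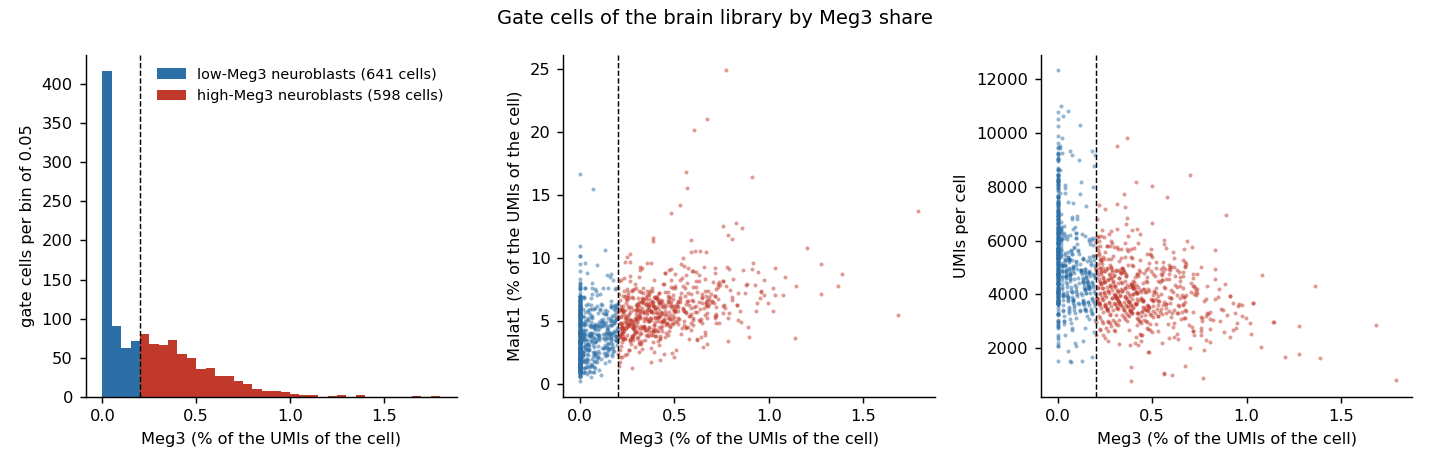
Cells that passed the neuroblast gate, by the share of their UMIs from Meg3 (x axes, percent): number of cells per bin of 0.05 (left), Malat1 share in percent (middle) and UMIs per cell (right), with a dashed line at the 0.2% threshold. The bins on either side of the threshold hold 71 and 80 cells, with no gap, and the 598 high-Meg3 neuroblasts (red) have a median Malat1 share of 5.83% against 3.73% in the 641 low-Meg3 neuroblasts (blue).

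Against low-Meg3 neuroblasts, the members had higher levels of the receptor gene Prokr2 and the transcription factor genes Foxp2 and Pbx3. Higher too were the noncoding RNA Rian, a neighbour of Meg3, and 8 of 16 listed genes of ion channels or proteins that bind them. The members had lower levels of 10 of 17 listed cell cycle genes and 8 of 9 listed excitatory neuron and dentate gyrus genes. The channel and cycle counts were smaller in cells with Malat1 between 4 and 6%, at 3 of 13 and 1 of 7 genes tested, and without cells holding at least 2 UMIs of 7 genes of the S and M phases, at 3 of 16 and 1 of 9. The excitatory and dentate count was 0 of 2 genes tested without cells holding any UMI of 7 excitatory-neuron genes, all of them on that list. UMIs were summed over the cells of each group, divided by the group total and scaled to CPM. Of 8917 genes with at least 50 UMIs over both groups, 174 (1.95%) were at least 2-fold higher in the members and 291 (3.26%) at least 2-fold lower, and the median log2 ratio over all genes was −0.02. Most transcripts therefore lay within the 2-fold limits.

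The largest ratio among genes with at least 200 UMIs belonged to Prokr2, the receptor for the secreted protein prokineticin 2, which guides neuroblasts into the olfactory bulb. Prokr2 (chromosome 2, 132337733 to 132385447, minus strand, build GRCm38) had 250 UMIs in the members and 36 in low-Meg3 neuroblasts. That is 102 against 10.52 CPM, a ratio of 9.72 (6.84 to 14.2). Under a stricter gate of at least 8 Dcx and Sox11 UMIs the ratio was 15.5. It was detected in 150 members (25.1%) and 30 low-Meg3 neuroblasts (4.68%), and in 0 of 317 endothelial cells (upper limit 0.946%, from a floor of 3 cells). After thinning to 1000 UMIs per cell, 55 of 594 members (9.26%) and 14 of 641 low-Meg3 neuroblasts (2.18%) held a UMI. The thinned level is low, since most members then have none.

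Rian, the noncoding RNA next to Meg3 (chromosome 12, 109603940 to 109661716, plus strand; Meg3 lies at 109541001 to 109571726), came next. It had 855 UMIs in the members and 186 in low-Meg3 neuroblasts, or 350 against 54.4 CPM and a ratio of 6.44 (5.49 to 7.58). With the Meg3 threshold at 0.1% the ratio was 12.6. At equal depth, 29.3% of members and 5.15% of low-Meg3 neuroblasts had a Rian UMI, against 0.643% of endothelial cells. Unthinned, the shares were 69.1%, 18.7% and 1.26%. The groups were split by Meg3, which is transcribed in the same direction, so the Rian ratio cannot be read apart from that split.

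The transcription factor genes Foxp2 and Pbx3 were at ranks 3 and 6 of the higher ratios. Foxp2 (chromosome 6, 14901349 to 15441977, plus strand), a forkhead gene, had 546 and 151 UMIs, or 223 against 44.1 CPM and a ratio of 5.06 (4.22 to 6.10). Pbx3 (chromosome 2, 34171457 to 34373142, minus strand), a homeodomain cofactor of Meis proteins, had 1895 and 574 UMIs, or 776 against 168 CPM and a ratio of 4.62 (4.21 to 5.08). Both genes differed at equal depth. Foxp2 was then found in 18.4% of members, 4.99% of low-Meg3 neuroblasts and 0.322% of endothelial cells (37.0, 14.04 and 1.26% unthinned). Pbx3 was found in 40.7, 13.3 and 4.502% (67.6, 28.4 and 12.6% unthinned). The proposed markers of the cells that the gate did not use were thus all higher in the members, and they had been proposed with these data known.

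The other leading genes have varied roles. Adarb2, a brain member of the RNA-editing enzyme family that is not known to edit, stood at 99.9 against 19.9 CPM (ratio 5.02, 3.83 to 6.67). Dusp4, a phosphatase of MAP kinases, had a ratio of 4.68 (3.42 to 6.52), and 7.26 under the stricter gate. Ncam2, an adhesion molecule of olfactory axons, had a ratio of 4.24 (3.22 to 5.65). The fibroblast growth factor receptor gene Fgfr2 had 3.93 (2.93 to 5.33), the corepressor gene Runx1t1 had 3.48 (2.99 to 4.06), and the potassium channel gene Kcnd3 had 3.62 (2.81 to 4.69), or 2.33 when cells were thinned to 2000 UMIs.

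**Figure D2:**
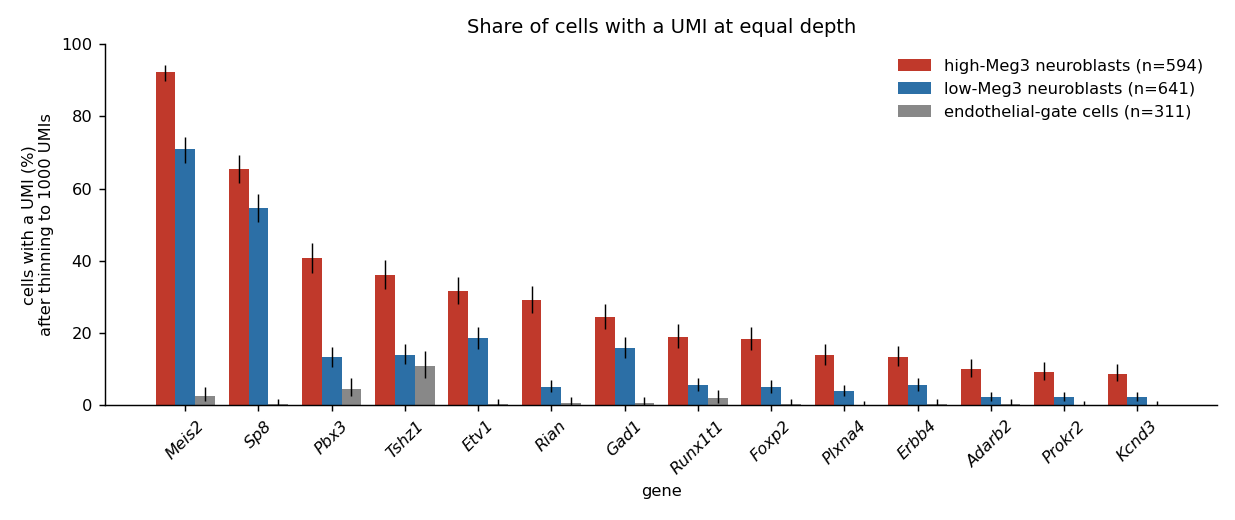
Share of cells with at least 1 UMI of a gene (y axis, percent) after every cell was thinned to 1000 UMIs, in 594 high-Meg3 neuroblasts, 641 low-Meg3 neuroblasts and 311 endothelial cells; error bars are exact 95% intervals. Each of the 14 genes is found in more high-Meg3 than low-Meg3 neuroblasts, and Meis2 and Sp8 are common in both.

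At the other end, Neurod1, a driver of excitatory neuron differentiation, had 1 UMI in the members and 268 in low-Meg3 neuroblasts, a ratio of 0.00522 (0.000132 to 0.0294). Lhx2, a LIM homeobox gene of cortical progenitors, had 15 and 300 UMIs (ratio 0.0700, 0.0387 to 0.117). Id2, an inhibitor of basic helix-loop-helix factors, had 42 and 347 UMIs (0.169, 0.120 to 0.234). Calb2, which encodes the calcium-binding protein calretinin, had 58 and 331 UMIs (0.245, 0.182 to 0.325). The ratios depended on a small set of cells. Without the 6 members and 58 low-Meg3 neuroblasts that held any UMI of 7 excitatory-neuron genes (Eomes, Neurod1, Neurod2, Neurod6, Tbr1, Neurog2 and Slc17a6), the ratios were 0.270 for Lhx2, 0.906 for Id2 and 0.732 for Calb2. Id2 was at 0.0701 in cells with Malat1 between 4 and 6%.

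The other genes among the 10 lowest ratios had varied roles. Mdk, which encodes the growth factor midkine, had 374 and 2442 UMIs, or 153 against 714 CPM (ratio 0.214, 0.192 to 0.239). Dbi, which encodes an acyl-CoA-binding protein, had a ratio of 0.216 (0.179 to 0.258), and Fabp7, the fatty acid-binding protein of radial glia, 0.187 (0.123 to 0.274). The ratio of Tead2, a transcription factor of the Hippo pathway, was 0.184 (0.119 to 0.274), and that of the sterol synthesis gene Sc4mol was 0.266 (0.196 to 0.357). In cells with Malat1 between 4 and 6% these ratios were nearer to 1, at 0.366 for Mdk, 0.492 for Dbi, 0.400 for Fabp7, 0.362 for Tead2 and 0.573 for Sc4mol. Ptgds, which encodes a prostaglandin synthase of meninges and glia, had a ratio of 0.249 (0.204 to 0.303). Without the 8 members and 18 low-Meg3 neuroblasts that held at least 3 UMIs of vessel or microglia genes, it was 0.977, and in cells with Malat1 between 4 and 6% it was 0.498.

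**Figure D3:**
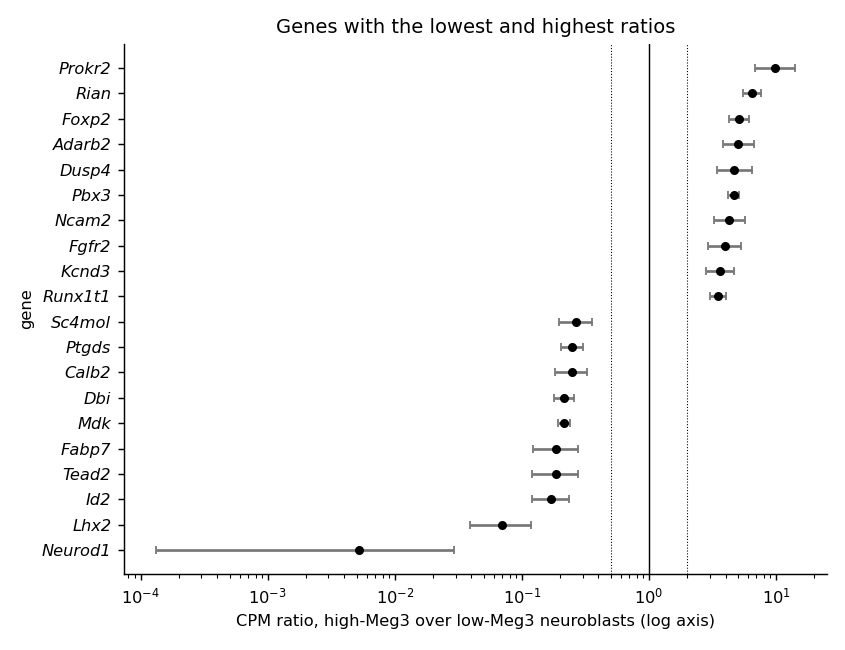
CPM ratio of high-Meg3 over low-Meg3 neuroblasts (x axis, log scale) for the 10 genes with the lowest and the 10 with the highest ratio among genes with at least 200 UMIs; bars are exact 95% intervals of counting error, the solid line marks a ratio of 1 and the dotted lines 2-fold. Prokr2 is highest at 9.72, and Neurod1, with 1 UMI in the members, is lowest.

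The Dlk1-Dio3 domain was followed beyond Meg3. Of its 8 listed genes other than Meg3, 4 had at least 50 UMIs, and 3 of these were at least 2-fold higher and none lower, with a median log2 ratio of 1.56. Over all genes tested 1.95% were higher and 3.26% lower, and these shares stand beside the counts of the lists below. Mirg, the noncoding RNA beyond Rian, had 52 and 19 UMIs (ratio 3.83, 2.23 to 6.86). Begain, a protein-coding gene on the other side of Meg3, had 68 and 42 UMIs (2.27, 1.52 to 3.41). Begain fell under the 2-fold limit at 1.61 after thinning to 2000 UMIs, at 1.64 in cells with Malat1 between 4 and 6% and at 1.96 as a mean of CPM over cells, while Mirg stayed at 2.66 or more in all 16 alternatives. Dlk1, the paternally expressed protein-coding gene that gives the domain its name, had 2 and 1 UMIs. Of 15 other imprinted genes tested, 0 were at least 2-fold higher and 1 was lower, with a median log2 ratio of 0.13. Nnat, the most abundant of these, stood at 2130 against 1985 CPM, and Ndn at 192 against 206 CPM. Snrpn and Peg3 had ratios of 1.21 and 0.932. The noncoding RNAs Rian and Mirg thus passed 2-fold, and Nnat, Ndn, Snrpn and Peg3 did not. How far the ratios of Rian, Mirg and Begain follow from the split of the groups by Meg3 was not tested.

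Transcription factors of olfactory bulb neuron subtypes differed in both directions. Of 21 listed subtype genes tested, 5 were at least 2-fold higher in the members and 2 lower, against 1.95% and 3.26% of all genes, with a median log2 ratio of 0.25. The higher ones were Foxp2, Pbx3, Foxp4, Tshz1 and Tshz2. Tshz1, a zinc finger gene of granule neurons, had 1185 and 560 UMIs (ratio 2.96, 2.68 to 3.28), Tshz2 had 243 and 137 UMIs (2.48, 2.01 to 3.08), and Foxp4 had 49 and 25 UMIs (2.74, 1.66 to 4.64). With the stricter gate Tshz2 was at 3.73 and Foxp4 at 1.78, Foxp4 was at 4.46 without cells holding excitatory-neuron genes, and Tshz2 was at 1.996 as a mean of CPM over cells. The lower genes were Calb2, described above, and the zinc finger gene Zic4, with 10 and 60 UMIs (ratio 0.233, 0.106 to 0.459). Zic4 stayed at least 2-fold lower in all 16 alternatives, nearest to 1 at 0.415 with the Meg3 threshold at 0.1%. In cells with Malat1 between 4 and 6% the counts were again 5 and 2, of 19 genes tested, which need not be the same genes. Meis2, the most abundant gene of the list, stood at 2968 against 1739 CPM (ratio 1.71, 1.65 to 1.77). Etv1, a marker of superficial granule and periglomerular cells, stood at 395 against 222 CPM (1.78, 1.62 to 1.96). Pax6, needed for dopaminergic periglomerular neurons, had a ratio of 0.906 (0.792 to 1.03), and the nuclear receptor gene Nr2f1 had 0.620 (0.538 to 0.713). Pax6 was at 0.514 in cells with Malat1 between 4 and 6%, and Nr2f1 at 0.403 under the stricter gate.

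Several marker genes of finished bulb neurons gave few UMIs in the members. Th, the rate-limiting enzyme of dopamine synthesis, had 0 UMIs in the 598 members, with an upper limit of 0.502% for cells with a Th UMI, from a floor of 3 cells. At this depth that does not limit the share of cells expressing the gene. Calb1, the calbindin gene, had 16 UMIs in 2 members, and Penk and Scgn had 1 UMI each. Calb2, a marker of calretinin neurons of the bulb, was found more often, with 58 UMIs in 32 members. Th, Calb1, Penk and Scgn were thus found in at most 2 members each, and Calb2 was not as rare.

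The inhibitory neuron programme was present in both groups at similar levels. Of 12 listed genes tested, 0 were at least 2-fold higher and 1 was lower, against 1.95% and 3.26% of all genes, with a median log2 ratio of 0.35. The glutamic acid decarboxylase genes, whose enzymes make the transmitter GABA, stood at 606 against 455 CPM for Gad2 (ratio 1.33, 1.24 to 1.43) and 264 against 183 CPM for Gad1 (1.44, 1.29 to 1.61). The vesicular GABA transporter gene Slc32a1 had a ratio of 1.24 (1.04 to 1.47). The ratio was 1.48 (1.40 to 1.56) for Sp8. Dlx6 and its overlapping antisense RNA Dlx6os1, which cannot be told apart where strand is not used, had ratios of 1.22 and 1.12. The lower gene was Npy, a peptide of other interneurons, with 1 and 55 UMIs. The cortical interneuron genes Lhx6 and Nkx2-1 had 0 UMIs in the members and 17 and 23 in low-Meg3 neuroblasts. That difference depended on the threshold, since at 0.1% Meg3 the ratios were 0.973 for Npy, 0.831 for Nkx2-1 and 1.29 for Lhx6. In all, 1 member and 19 low-Meg3 neuroblasts held a UMI of any of these genes.

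Most listed genes of excitatory neurons and the dentate gyrus were nearly missing from the members. Of 9 tested, 0 were higher and 8 were at least 2-fold lower, against 3.26% of all genes. The median log2 ratio was −5.62 over the 7 with a UMI in the members, and −4.35 over all 9 with the other genes at their bound, which sets them nearer to 0 than they may be. Eomes, a factor of intermediate progenitors, had 1 and 160 UMIs. The neuronal factor genes Neurod2 and Neurod6 had 0 UMIs in the members against 58 and 71, which makes them at least 13.8-fold and 16.9-fold lower when 3 UMIs are taken as the floor of the group. The exceptions were Calb2, which is also on this list, with 58 UMIs, and Prox1, a dentate granule factor also made in other neurons, with 316 and 809 UMIs and a ratio of 0.547 (0.479 to 0.624). The 7 excitatory-neuron genes named above gave 6 UMIs in 6 members, at most 1 per cell, and 727 UMIs in 58 low-Meg3 neuroblasts, up to 32 per cell. So 55 of the 641 low-Meg3 neuroblasts (8.58%, 6.53 to 11.02%), and 0 of 598 members, held at least 2 of these UMIs. The low-Meg3 group is therefore a mixture, and its excitatory cells were left out in an alternative in which Pbx3, Foxp2, Rian and Prokr2 stayed within 1.5 times of the ratios above.

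Receptors and adhesion molecules of migrating neurons were mixed. Of 28 tested, 3 were at least 2-fold higher in the members, 3 were lower, against 1.95% and 3.26% of all genes, and the median log2 ratio was 0.31. Besides Prokr2, the higher genes were Erbb4, the neuregulin receptor of migrating neuroblasts, at 161 against 51.4 CPM (ratio 3.13, 2.62 to 3.77), and Plxna4, a semaphorin receptor subunit, at 145 against 48.2 CPM (3.00, 2.49 to 3.64). The Plxna4 ratio was 1.77 in cells with Malat1 between 4 and 6%. The lower genes were the secreted guidance gene Sema3c (5 and 174 UMIs), its receptor gene Nrp1 (15 and 111 UMIs) and the netrin receptor gene Dcc (17 and 88 UMIs). Without cells holding excitatory-neuron genes, the ratios were 0.393 for Sema3c and 0.944 for Nrp1, while that of Dcc stayed within 1.5 times of its value of 0.270. Dcc was at 0.439 and Nrp1 at 0.0439 in cells with Malat1 between 4 and 6%. Robo2, a receptor for Slit proteins, stood at 566 against 329 CPM (1.72, 1.59 to 1.87), and Ncam1, which carries polysialic acid on migrating neuroblasts, at 489 against 406 CPM (1.20, 1.11 to 1.30).

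Microtubule and cytoskeletal genes were abundant and close between the groups. Of 27 tested, 1 was at least 2-fold higher and 0 lower, against 1.95% and 3.26% of all genes, with a median log2 ratio of 0.26. Tuba1a stood at 7180 against 7406 CPM, Tubb2b at 5607 against 5049 CPM and Stmn2 at 3321 against 2822 CPM. The higher gene was Ina, which encodes the neuronal filament protein internexin, with 279 and 154 UMIs (ratio 2.54, 2.08 to 3.11). It fell under the 2-fold limit, at 1.63, in cells with Malat1 between 4 and 6%. Mapt, the gene of the axonal protein tau, had a ratio of 1.996 (1.80 to 2.22), just under the limit, and 1.32 in those cells.

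Genes of ion channels and of proteins that bind them were shifted as a list. Of 16 tested, 8 were at least 2-fold higher in the members, against 1.95% of all genes, and 0 lower, with a median log2 ratio of 1.02. They were the potassium channel gene Kcnd3, the calcium channel genes Cacna1c, Cacna2d3 and Cacnb4, the sodium channel subunit gene Scn3b, and Fgf12, Fgf13 and Fgf14, whose products bind sodium channels. Scn3b had 227 and 146 UMIs (ratio 2.18, 1.76 to 2.699), Cacna2d3 117 and 62 UMIs (2.64, 1.93 to 3.66) and Fgf14 118 and 63 UMIs (2.62, 1.92 to 3.62). The count was not stable to the cells used. It was 7 of 13 tested after thinning to 2000 UMIs, 3 of 13 in cells with Malat1 between 4 and 6%, and 3 of 16 without cells holding at least 2 UMIs of 7 S or M phase genes. It was 5 when CPM values were averaged over cells in place of summed counts. In cells with Malat1 between 4 and 6%, Scn3b was at 1.44, Fgf14 at 1.52, Fgf13 at 1.93 and Cacna1c at 1.33. Fgf12 had a ratio of 2.16, with 3.48 in those cells and 1.49 without cells holding S or M phase genes. Fgf14 was at 1.67 after thinning to 2000 UMIs. The median log2 ratio was 1.03 after thinning, 0.53 with Malat1 between 4 and 6%, and 0.73 without cells holding S or M phase genes.

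Synapse and receptor genes mostly lay within 2-fold. Of 34 synapse and vesicle genes tested, 5 were at least 2-fold higher and 1 lower, against 1.95% and 3.26% of all genes, with a median log2 ratio of 0.23. The count of lower genes was near the share over all genes. Shank1, a postsynaptic scaffold gene, had 353 and 163 UMIs (ratio 3.03, 2.51 to 3.67), Rims1, of the presynaptic active zone, 116 and 60 UMIs (2.71, 1.97 to 3.76), and Syt1, the calcium sensor of vesicle release, 149 and 85 UMIs (2.45, 1.87 to 3.24). Pclo and Erc2, also of the active zone, had ratios of 2.07 and 3.50. In cells with Malat1 between 4 and 6% the ratio of Shank1 was 1.69, that of Syt1 was 1.96 and that of Erc2 was 0.966. Without cells holding S or M phase genes, Syt1 was at 1.98 and Pclo at 1.76. With Malat1 between 4 and 6%, 2 of 24 synapse genes were higher and 1 lower, and without cells holding S or M phase genes 3 of 33 were higher and 2 lower. Syn2 was the lower gene, with 11 and 73 UMIs, and its ratio was 0.660 without cells holding excitatory-neuron genes. Snap25, a core protein of vesicle fusion, stood at 100.3 against 84.2 CPM (1.19, 1.0003 to 1.42). Among 8 glutamate receptor genes tested, Grik3 alone passed 2-fold, with 133 and 58 UMIs (3.21, 2.34 to 4.45).

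Neuronal RNA-binding protein genes differed little. Of 21 tested, 0 were at least 2-fold higher and 3 lower, against 1.95% and 3.26% of all genes, with a median log2 ratio of −0.05. Celf4 had a ratio of 1.51 (1.41 to 1.62) and Elavl3 of 1.18 (1.11 to 1.25). The 3 lower genes were Nova1 (ratio 0.274), Rbfox3 (0.355) and Rbfox1 (0.477), each with 18 UMIs or fewer in the members. Rbfox1 was at 0.232 in cells with Malat1 between 4 and 6%. Rbfox3, whose product is the neuronal antigen NeuN, stood at 1.43 without cells holding excitatory-neuron genes, and Rbfox1 at 0.687. Malat1 itself had a ratio of 1.59 and Neat1 of 0.782.

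Cell cycle genes were lower in the members even though the gate had removed cells with more than 1 UMI of Mki67 and Top2a from both groups. Of 17 other cycle genes tested, 0 were higher and 10 were at least 2-fold lower, against 3.26% of all genes, with a median log2 ratio of −1.43. The replication licensing gene Mcm3 had 9 and 151 UMIs (ratio 0.0834, 0.0374 to 0.163), and the G1 kinase gene Cdk6 had 12 and 169 UMIs (0.0994, 0.0504 to 0.178). Cdk4 (ratio 0.718) and Mcm7 (0.973) did not pass 2-fold. Ccnd2, the D cyclin of neuronal progenitors, was the most abundant cycle gene, at 2227 against 4091 CPM (0.544, 0.527 to 0.562). At least 2 UMIs of Mcm2, Mcm3, Mcm5, Rrm2, Cenpf, Pcna and Tyms were found in 27 members (4.52%, 2.996 to 6.501%) and 149 low-Meg3 neuroblasts (23.2%, 20.03 to 26.7%). Without those cells, 1 cycle gene of the 9 still tested was at least 2-fold lower, as was 1 of 7 in cells with Malat1 between 4 and 6%. Cdk6 was then at 0.156, Mcm3 at 0.287, Mcm5 at 1.23 and Rrm2 at 1.18, where all but Cdk6 belong to the genes used to remove the cells. Cdk6 was at 0.201, Mcm3 at 0.290 and Mcm5 at 0.828 in cells with Malat1 between 4 and 6%.

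Genes that restrain the cycle did not move as a group. Of 10 tested, 0 were at least 2-fold higher and 2 lower, against 1.95% and 3.26% of all genes, with a median log2 ratio of −0.13. Btg1, an antiproliferative gene, stood at 1211 against 699 CPM (ratio 1.73, 1.64 to 1.83), while Cdkn1b, the gene of the inhibitor p27, stood at 398 against 421 CPM. The lower genes were the kinase inhibitor gene Cdkn2c (ratio 0.409) and the growth arrest gene Gadd45g (0.382). In cells with Malat1 between 4 and 6%, and without cells holding S or M phase genes, Gadd45g stood at 0.620 and 0.576. Cdkn2c was at 0.542 without cells holding excitatory-neuron genes, so neither call held throughout.

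Early neuroblast and progenitor genes were mostly within 2-fold. Of 22 tested, 0 were higher and 4 lower, against 1.95% and 3.26% of all genes, with a median log2 ratio of −0.20. Insm1, a zinc finger factor of neuronal commitment, had 139 and 618 UMIs (ratio 0.315, 0.260 to 0.379), and the chromatin gene Hmgb2 had 129 and 605 UMIs (0.299, 0.245 to 0.362). Hmgb2 was at 0.764 in cells with Malat1 between 4 and 6% and 0.611 without cells holding S or M phase genes, and Insm1 was at 0.501 in the former. Of 20 listed genes, 0 passed 2-fold in cells with Malat1 between 4 and 6%, and without cells holding S or M phase genes 1 of 21. The growth factor receptor gene Egfr had a ratio of 0.410, and 0.658 under the stricter gate. The most abundant genes of the list differed less, with Nfib at 3639 against 3162 CPM, Sox4 at 2756 against 1956 CPM and Igfbpl1 at 1874 against 2322 CPM.

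Stem cell and astroglial genes were mostly within 2-fold as well. Of 14 tested, 0 were higher and 4 lower, against 1.95% and 3.26% of all genes, with a median log2 ratio of −0.50. Vim, the intermediate filament gene vimentin, had 414 and 2160 UMIs, or 169 against 631 CPM (ratio 0.268, 0.241 to 0.298). Sox9, a factor of neural stem cells, had 160 and 487 UMIs (0.460, 0.382 to 0.551), and was at 0.578 in cells with Malat1 between 4 and 6%, 0.547 without cells holding S or M phase genes and 0.543 under the stricter gate. In cells with Malat1 between 4 and 6%, 2 of 11 stayed lower and the median was 0.00. Sox2 (1.24) and Sox1 (1.09), which neuroblasts keep, did not differ by 2-fold. Nes, the gene behind the reporter used for the sort, had 76 UMIs in the members and 171 in low-Meg3 neuroblasts (0.622, 0.468 to 0.820), or 1.06 in cells with Malat1 between 4 and 6%.

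Markers of other cell types were low in both groups. The 9 listed microglia genes had 18 UMIs in the members and 183 in low-Meg3 neuroblasts, of which 161 lay in 1 cell. The 9 endothelial genes summed to 76.9 CPM in the members and 139 CPM in low-Meg3 neuroblasts, the 8 mural genes to 15.1 and 34.8 CPM, and the 9 mature oligodendrocyte genes to 396 and 355 CPM. The mural genes Kcnj8 and Acta2 were at 0 in the members. Without cells holding 3 or more vessel or microglia UMIs, 169 genes were at least 2-fold higher and 279 lower, close to the counts with them.

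The members and low-Meg3 neuroblasts lay along a continuous range of Meg3. Over 7 bins of the Meg3 share, Rian stood at 1.57 CPM in the 330 cells without a Meg3 UMI and 481 CPM in the 207 cells with 0.5% or more, and every bin was above the one before it (Meg3 was left out of these totals). Pbx3 was at 89.3 CPM in the first bin and 1014 CPM in the last, with each bin above the previous. Foxp2 was at 23.9 and 314 CPM, also in steady order. Median depth was 5502.5 and 3741 UMIs in the first and last bins, and median Malat1 3.33 and 6.63%.

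The genes did not share 1 course. Prokr2 was at 22.2 CPM in cells with 0.1 to 0.2% Meg3 and at 27.6 CPM in members with 0.2 to 0.3%, and then at 105 and 163 CPM in the 2 bins above. Tshz1, in contrast, was at 235 CPM already in the third bin and at 572 CPM in the last. Tshz2 was at 80.7 CPM just under the threshold and at 101.3 CPM in the last bin. Neurod1 was at 133 CPM in cells without a Meg3 UMI, at 14.5 CPM in the next bin and at 0 in the last 2.

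At the threshold itself most genes were close. Prokr2 was at 20.9 CPM just outside and 22.1 CPM just inside, Rian at 221 and 252 CPM, Pbx3 at 367 and 445 CPM and Tshz1 at 313 and 307 CPM. Foxp2 was less close, at 98.4 and 138 CPM. Vim differed most of these, at 596 and 293 CPM, which is a smaller difference than between the whole groups.

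**Figure D4:**
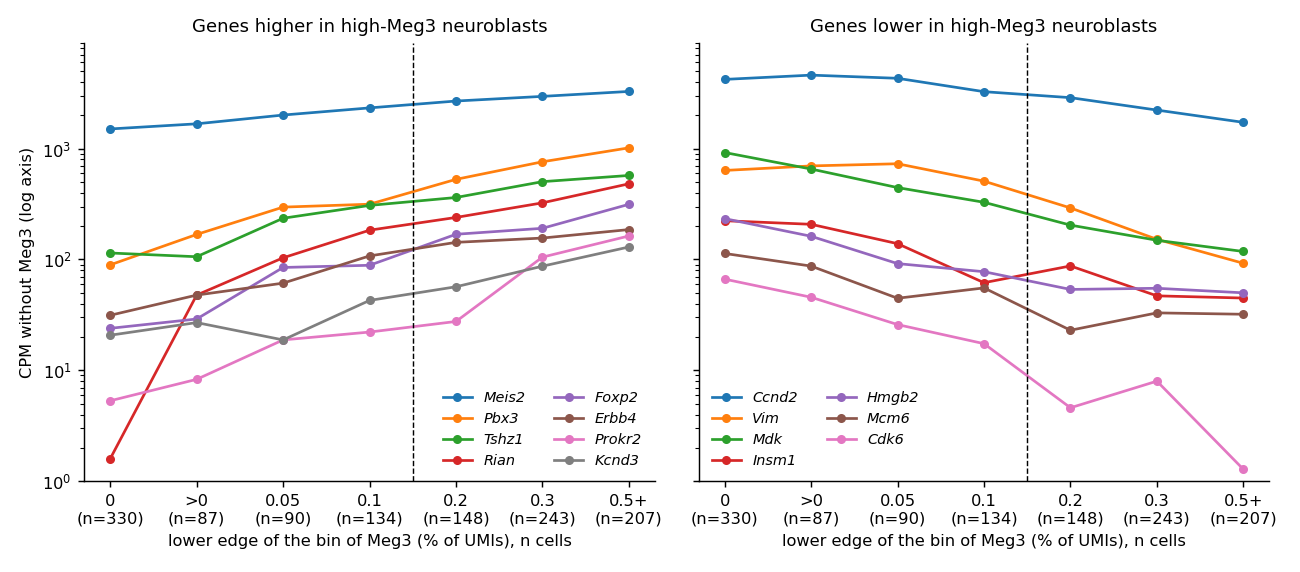
CPM without Meg3 (y axes, log scale) in 7 bins of the Meg3 share of gate cells (x axes, percent, with the number of cells), for genes higher (left) and lower (right) in high-Meg3 neuroblasts; points are sums over the cells of a bin, and the dashed line is the 0.2% threshold. Rian, Pbx3 and Foxp2 increase in every bin, Prokr2 increases mainly above 0.3%, and Ccnd2 falls from 4200 to 1722 CPM.

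Among the members alone, part of this order could be read. Between the 148 members with 0.2 to 0.3% Meg3 and the 207 with 0.5% or more, Prokr2 had 18 and 127 UMIs (ratio of the upper over the lower bin 5.90, 3.59 to 10.3). Syt6, a synaptotagmin, had 21 and 65 UMIs (2.59, 1.56 to 4.46), Kcnd3 37 and 101 UMIs (2.28, 1.55 to 3.42), and Pbx3 344 and 791 UMIs (1.92, 1.69 to 2.19). Vim had 190 and 72 UMIs (0.317, 0.238 to 0.418), Insm1 57 and 35 UMIs (0.514, 0.327 to 0.796) and Ccnd2 1875 and 1343 UMIs (0.599, 0.558 to 0.643). Sox11, a gate gene, was at 469 and 439 CPM. Other genes ran against the difference between the groups. Id2 had 2 and 19 UMIs (7.94, 1.92 to 70.3), Gadd45g 21 and 46 UMIs (1.83, 1.07 to 3.23), Stmn2 2456 and 2249 UMIs (0.766, 0.723 to 0.811) and Tubb2b 4140 and 3856 UMIs (0.779, 0.745 to 0.814). Between the groups Stmn2 and Tubb2b had ratios of only 1.18 and 1.11, or 1.03 and 0.953 in cells with Malat1 between 4 and 6%. Median Malat1 was 4.92% in the lower bin and 6.63% in the upper. The bins were cut by the Meg3 share, which the rule used, so these values are a description.

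The members differed among themselves in subtype genes. Of the 598, 596 held a Meis2 UMI, 553 Sp8, 413 Tshz1, 404 Pbx3, 403 Etv1, 366 Gad1, 221 Foxp2, 184 Pax6, 150 Prokr2, 63 Zic1 and 32 Calb2. Of the 4 genes Foxp2, Pbx3, Tshz1 and Etv1, all 4 were found together in 114 members, 3 in 192, 2 in 149, 1 in 111 and none in 32. Missing UMIs at this depth do not show that a gene is off.

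Foxp2 and Pax6 were seldom found together. Both had a UMI in 34 members, where the product of their separate shares would give 68.0. Foxp2 and Pbx3 were found together in 193 members, where the product would give 149. Members with a Foxp2 UMI (221, median 3784 UMIs) and without (377, median 4068 UMIs) were then compared over 4260 genes with at least 100 UMIs. With Foxp2, 5 genes (0.117%) were at least 2-fold higher and 10 (0.235%) lower. These cells were split by a measured gene, so the values are a description.

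The higher genes were Lurap1l (62 and 46 UMIs, ratio 2.37), Pbx3 (1057 and 838 UMIs, ratio 2.22), Zfhx3 (2.17), Prkca (2.03) and Tenm4 (2.01). The lower genes began with Zic1, a zinc finger factor of some bulb interneurons, at 13.5 CPM with Foxp2 and 80.2 CPM without (ratio 0.169, 0.0850 to 0.306). Pax6 stood at 55.3 and 206 CPM (0.268, 0.195 to 0.363), Dab1, an adaptor of the reelin pathway, at 22.6 and 70.0 CPM (0.323, 0.190 to 0.523), and Vim at 76.8 and 222 CPM (0.346, 0.262 to 0.449). Slc1a3, also lower, was limited by the gate. Members without Foxp2 thus included cells with more Zic1, Pax6 and Vim, at similar median Meg3 (0.397% without and 0.433% with Foxp2).

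**Figure D5:**
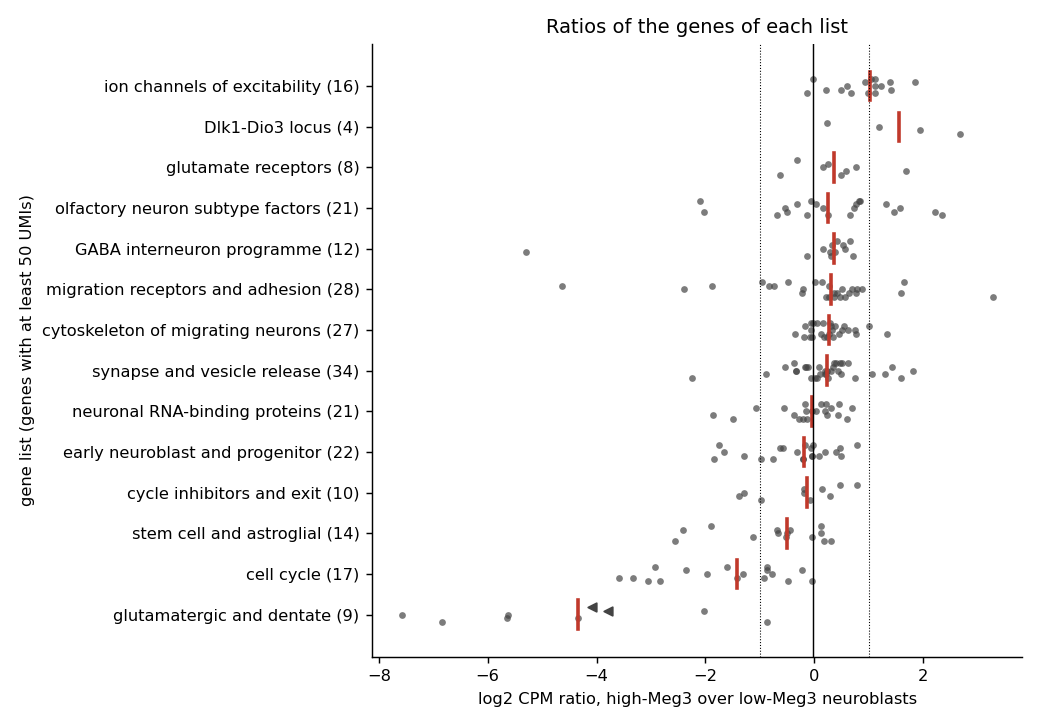
Log2 CPM ratio of high-Meg3 over low-Meg3 neuroblasts (x axis) for each gene of 14 lists with at least 50 UMIs over both groups (number in parentheses); red bars are list medians, left-pointing triangles are genes without a UMI in the members drawn at their bound, the solid line is the median of all genes (−0.02) and dotted lines are 2-fold. Genes of the channel list lie to the right (median 1.02), and cycle (−1.43) and excitatory genes (−4.35 with genes without a UMI at their bound, −5.62 without them) to the left.

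Against all 3553 other kept brain cells, the members were compared as a description, since the gate reads genes of the same cells. Of 13471 genes tested, 698 (5.18%) were at least 2-fold higher and 4044 (30.0%) lower, with a median log2 ratio of −0.20. Of 17 inhibitory neuron genes, 9 were higher and 5 lower, and of 22 cell cycle genes 0 and 19. Prokr2 (ratio 10.4, 8.52 to 12.7), Dusp4 (9.21, 7.30 to 11.6), C79798 (7.64, 5.90 to 9.91), Adarb2 (7.32, 6.09 to 8.79) and Syt6 (7.29, 5.73 to 9.29) led the higher genes. C79798 is an antisense transcript (chromosome 2, 34287771 to 34304440, plus strand) that lies within Pbx3, so where strand is not used its UMIs cannot be told apart from those of Pbx3. Under the stricter gate Prokr2 was at 5.95, Dusp4 at 5.87 and Syt6 at 4.22, and as a mean of CPM over cells C79798 was at 4.58. Members that fail the stricter gate join the other cells (3918 in place of 3553), so that reference then holds high-Meg3 neuroblasts. The lower end held genes without a UMI in the members, led by the pericyte-rich ATPase gene Atp13a5, with 1312 UMIs elsewhere and at least 62.6-fold lower. Ndufa4l2 was at least 51.6-fold lower and Slc6a13, a transporter of the meninges, at least 42.8-fold.

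Some cells with as much Meg3 lay outside the gate. Of 940 kept brain cells with Meg3 at 0.2% or more, 342 were not members, and 199 of these failed only the requirement of 4 Dcx and Sox11 UMIs. Those 199 were shallower, with a median of 2762 UMIs. They had 149 CPM of Prokr2, 962 of Pbx3, 333 of Foxp2 and 510 of Rian, against 102, 776, 223 and 350 CPM in the members. Their median Meg3 share was also higher, at 0.523% against 0.413%. The gate thus left out cells with levels of these genes above those of the members. Cells that met the gate except for holding at least 2 UMIs of Mki67 and Top2a (276 cells) had 3.04 CPM of Prokr2, 102 of Pbx3, 46.3 of Foxp2 and 41.6 of Rian, against 10.52, 168, 44.1 and 54.4 CPM in low-Meg3 neuroblasts.

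The lung library of the same study held no such cells. Of 5608 kept lung cells, 0 passed the gate (upper limit 0.0535%), and 36 had any Dcx UMI. The libraries shared 15 cell barcodes, 12 of them among kept brain cells and 0 among the members.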

How the data were processed

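Nestin-GFP+ cells of 1 brain and 1 lung library were analysed. Per the submitters' processing notes, the authors demultiplexed reads with bcl2fastq 2.19.1.403, handled barcodes with UMI-tools 1.0.0, aligned to mm10 with STAR 2.7.1a and assigned reads to genes with featureCounts 1.6.4. The annotation version and strand setting are not given in the sources used here. The deposited values are UMI counts per gene and cell barcode, without normalization. The brain table held 4640 barcodes.

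Cells with more than 200 and fewer than 4000 genes and less than 40% mitochondrial UMIs passed, following the filter that the methods state (4151 brain cells, 19518081 UMIs). UMIs were summed over cells and given as CPM, and ratios carry exact 95% intervals of the conditional binomial distribution, shares exact (Clopper-Pearson) intervals (Python 3.11.15, scipy 1.17.1). The ratio code was tested on simulated data. There was no p-value, because cells of 1 library are not replicates. A fold against 0 UMIs used a floor of 3 UMIs over the group. To compare the share of cells with a UMI, 1000 UMIs were drawn per cell without replacement, leaving out shallower cells. Doublets were kept, and their removal with Scrublet (scanpy 1.11.5) was an alternative.

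Named genes were the 10 highest and 10 lowest ratios against low-Meg3 neuroblasts and the 5 and 5 against all other kept cells, among genes with at least 200 UMIs, leaving out gate, mitochondrial, ribosomal protein and unnamed genes. To these were added the highest and lowest ratios and the highest counts of the gene lists and the label markers. The members, the gene lists, the thresholds and the alternatives were chosen with earlier results of these data known, so no pattern here is independent support of those results. Alternatives covered the Meg3 and Dcx+Sox11 thresholds, the filters on cells, the scaling, the UMI minimum and the depth. The 4 sets of cells left out by their Malat1 share or by genes of excitatory neurons, of the S and M phases, or of vessels and microglia were chosen after seeing the data. Of the listed genes, 2 are not reported here and were left out of the lists after their values were known. Of the 473 other listed symbols, 461 had counts as such, 4 under another symbol and 8 had none. Positions are from GENCODE annotation of GRCm38.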

Additional observations from a re-analysis of the deposited data

Results flagged for a closer look

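In the lung library, which no comparison above uses, 715 of 5608 kept cells (12.7%, 11.9 to 13.7%) also had Meg3 at 0.2% of their UMIs or more. This drew attention because a Meg3 share of that size is the last step in the choice of the brain cells, while 0 lung cells passed the other steps.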

How the results depend on the processing

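Of the 16 alternatives, 12 were planned and 4 were chosen after seeing the data. The number of members was 233 with at least 8 Dcx and Sox11 UMIs and 240 with Malat1 between 4 and 6%. It was between 450 and 732 with the other gates, filters and sets of cells. With at least 10 UMIs per gene, 543 genes were at least 2-fold higher and 891 lower than in low-Meg3 neuroblasts, and 1107 higher than in all other cells. With at least 200 UMIs, the counts were 58 and 60 against low-Meg3 neuroblasts and 463 and 2408 against all other cells. Against low-Meg3 neuroblasts, 112 were higher and 117 lower after thinning to 2000 UMIs, with 6499 genes tested, 64 and 71 with Malat1 between 4 and 6%, with 5821 genes tested, and 112 and 171 without cells holding S or M phase genes. The lower counts with fewer UMIs or a higher minimum go with fewer genes tested, and beyond that the cause was not tested.

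The ratios of Prokr2, Rian, Foxp2 and Pbx3 stayed above 2-fold in all 16 alternatives, with lowest values of 7.07, 5.12, 3.40 and 3.74. The alternatives of the UMI minimum change only which genes are tested, so they leave every ratio as it is. Ratios past 2-fold that crossed 1 were Lhx6 (1.29, Meg3 at least 0.1%), Rbfox3 (1.43, without cells holding excitatory-neuron genes), Erc2 (0.966, Malat1 between 4 and 6%), and Mcm5 (1.23) and Rrm2 (1.18) without cells holding S or M phase genes. Scrublet called 44 kept cells, 3 of them members. No paired analysis was possible because each tissue has 1 library. Depth limits genes with few UMIs, whose absence from a cell does not show absence of expression, and 1 library gives no measure of variation between animals.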
